A study of Mus musculus with 250 samples.

Results

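The 34 genes described here encode actin, the proteins that build, cut, crosslink and pull on actin filaments, and proteins that tie the filaments to the cell membrane and to adhesions. Their rows were picked by symbol, from a list chosen with earlier results of these data known. Of the 34 symbols, 33 had a row among the 27003 genes of the table. Tagln (SM22), a filament-binding protein of smooth muscle, had none and was not analysed here.

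The cells were single tail epidermal cells of mice of the genotype Lrig1CreER/Rosa-TdTomato. In these mice CreER, an inducible Cre recombinase, is under the control of Lrig1, a stem cell gene of the upper hair follicle. Once induced, it switches on a red reporter in cells that express Lrig1 at that time and in their progeny. All 250 cells carried this label and were sorted as Sca1+ (population L1 Sca-1+), a gate used to enrich upper follicle cells, at 8 weeks (8w_pw1; the rest of the abbreviation is not spelled out). There were 84 cells from a control region without memory, 81 from a distal memory region and 85 from the wound bed, each region in 2 batches. Every region and batch was 1 plate: 28 and 56 control cells, 32 and 49 distal cells, and 30 and 55 wound bed cells in batches 1 and 2. No animal is named, so each region was treated as 1 sample, no test between regions was run, and plate and region cannot be told apart within a batch. Pairs of values below are batch 1 then batch 2.

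Actin exists as free monomers and as filaments, and a cell that moves or changes shape keeps both in exchange. Thymosins and profilin hold the monomers, the Arp2/3 complex starts branched filaments at the leading edge, capping protein stops their growth and cofilin takes them apart. Tropomyosins, actinins, calponins and filamin stabilise and join filaments, and non-muscle myosin II pulls on them. Integrins, vinculin and zyxin connect them to the substrate, while ezrin and moesin connect them to the membrane. In epidermis this machinery is known for the cortical belts of resting keratinocytes and for the crawling of keratinocytes into a wound. Transcription of many of these genes is known to depend on serum response factor, which binds a DNA sequence called the CArG box.

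Total reads ranged from 1751116 to 10671470 per plate, and the median per cell from 31686 in distal batch 2 to 93690.5 in distal batch 1. Mitochondrial transcripts took a median of 21.7 to 39.2% of a cell's reads. Cells in which predicted genes took over 5% of the other reads made up 23 of 28 control cells of batch 1 and 2 to 16 cells of each other plate. All 4 cells with over 500000 reads were in distal batch 1. The labelled cell type was checked on marker lists. Basal keratinocyte markers (7 genes) had reads in 26 to 55 cells of each plate, with median summed levels of 2649 to 7567 CPM per cell (reads of a gene scaled to the cell's total). Suprabasal markers (8 genes) had a median of 18228 and 11158 CPM per cell in the wound bed, against 1667 to 4756 in the other 4 plates. Upper hair follicle markers (9 genes) had 93.1 and 259 CPM in the wound bed, 334 and 1004 in the distal plates, and 1170 and 2405 in control. The suprabasal and upper follicle lists therefore move with region beside every comparison below; values in basal-type cells are given for the genes that met the size rule, and the part of the marker lists was not tested further. Fibroblast markers (6 genes with a row) reached a summed scaled level of 91.9 CPM in control batch 1 and at most 8.48 in the other plates. Smooth muscle (2 genes), leukocyte (7), melanocyte (2) and endothelial markers (3) reached at most 27.2 CPM in any plate, and Col1a2, Pdgfra, Rgs5, Cd207 and Cd3e had 0 reads in all. Single cells went far above these plate levels. In distal batch 2 the highest cell had 3940 CPM of leukocyte markers. The fibroblast marker reads of that plate were 30 reads of Vim in 1 cell, at 1970 CPM. That plate also held the cell with the highest summed level of the listed genes (31720 CPM). Levels in this last cell came in steps of 65.7 CPM, and both marker peaks fall on such steps. These peaks may therefore be 1 cell, whose identity was not tested, and such cells were kept.

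The CArG box was searched on both strands in the RefSeq promoter windows (GRCm38.p6), which run from 250 bases before to 50 after a gene's start. Windows existed for 30 of the 34 genes; Actb, Tagln, Marcks and Shtn1 were unmatched. A CArG box lay in the windows of 6 of the 30 (20%), namely Actg1, Myl6, Myl9, Cnn2, Vcl and Itgb6, against 1.81% of all 27025 genes with a window and 2.01% of the 1745 of them with reads in at least 25% of the cells. The stretches around the box are shown for 5 of them, because they hold one motif in common and the wound bed values of Actg1, Myl6, Cnn2 and Vcl are described below; capitals mark the box, and each sequence runs 5′ to 3′ on the gene's strand.
Actg1, chr11:120348551-120348610, minus strand: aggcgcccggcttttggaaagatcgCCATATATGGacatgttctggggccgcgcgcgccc
Myl6, chr10:128493025-128493084, minus strand: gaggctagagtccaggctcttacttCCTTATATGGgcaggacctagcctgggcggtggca
Cnn2, chr10:79988519-79988578, plus strand: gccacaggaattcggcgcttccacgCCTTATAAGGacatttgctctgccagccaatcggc
Vcl, chr14:20929148-20929205, plus strand: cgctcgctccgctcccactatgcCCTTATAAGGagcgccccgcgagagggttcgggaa
Myl9, chr2:156775278-156775337, plus strand: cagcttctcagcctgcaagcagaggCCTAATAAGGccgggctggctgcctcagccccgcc
The box began 90 bases before the start in Actg1, 50 in Myl6, 56 in Cnn2, 227 in Vcl and 161 in Myl9. GENCODE M21 places the Myl6 stretch inside an exon of a longer Myl6 transcript and the other 4 stretches outside any annotated gene. A box in a window is a match of letters and not a measured binding site.

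Detection of the 33 genes ran from nearly every cell to nearly none. Reads were present in at least 50% of the 250 cells for 13 genes, in under 10% for 5 genes and in between for 15. Tmsb4x, the main monomer-sequestering thymosin, was found in 245 cells, the myosin light chain Myl12a in 233, beta-actin (Actb) in 232, the light chain Myl6 in 215, gamma-actin (Actg1) in 210 and profilin (Pfn1) in 185. At the other end Vcl had reads in 21 cells, the integrin chains Itgb6 and Itga5 in 6 and 1, the smooth muscle-type light chain Myl9 in 3 and the calponin Cnn3 in 2. Per kilobase of exon, the mean scaled level over the 6 plates was 1256 CPM for Tmsb4x, 570.5 for Actb, 267 for Myl12a, 247 for Arpc2 and 157 for Tagln2. These ranks are descriptions of whole plates, whose ranges overlap: Tmsb4x spanned 667 to 2015 CPM per kilobase and Actb 295 to 1180.

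**Figure D1:**
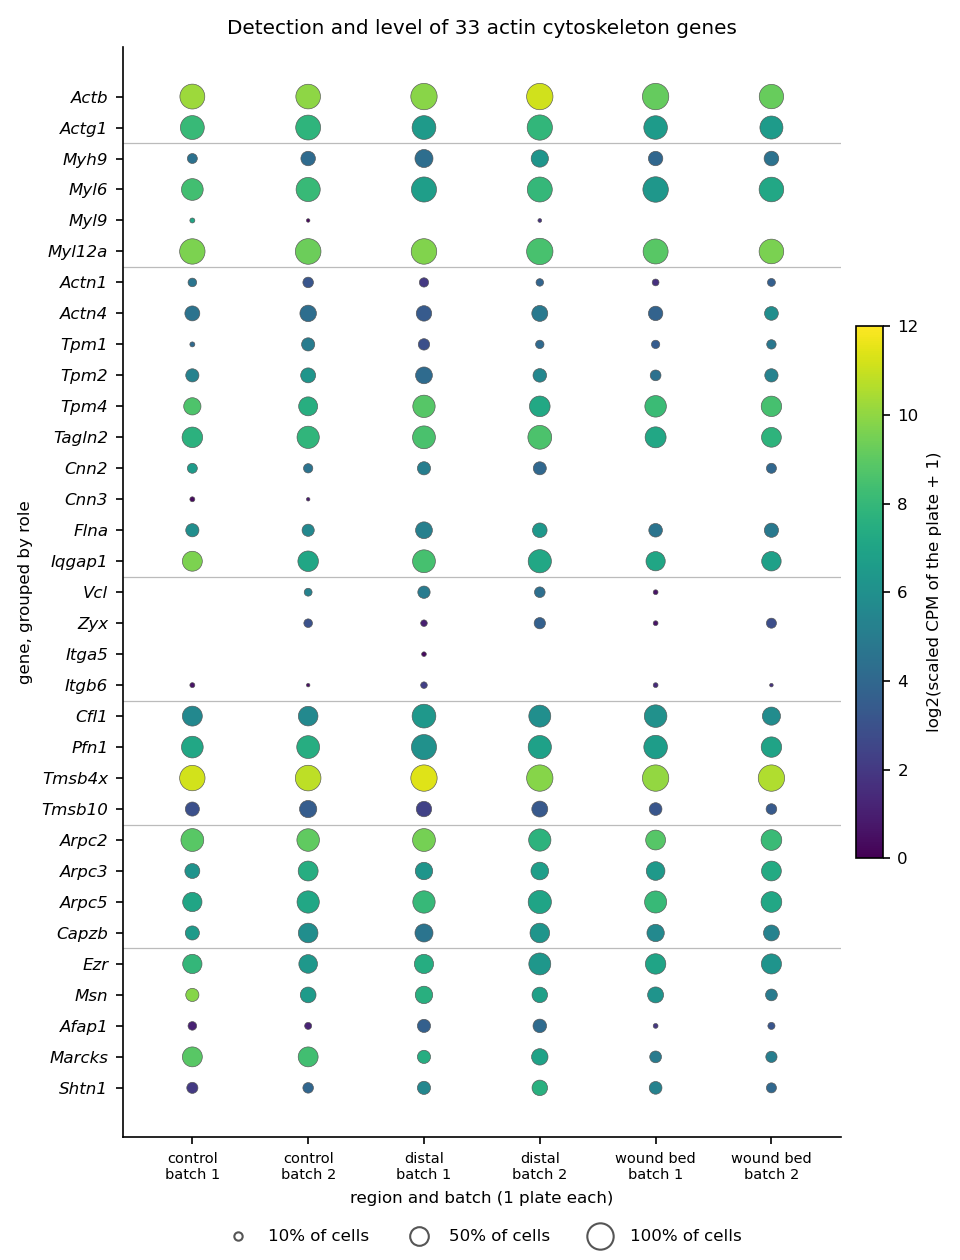
Detection and level of the 33 genes in the 6 plates, with genes in rows by role (lines separate roles) and plates in columns. Circle area is the percent of the plate's cells with a read and colour is log2 of scaled CPM of the plate plus 1; Tmsb4x, Actb and Myl12a are large and bright in every plate, while Cnn3, Itga5, Itgb6 and Myl9 are small or absent.

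The median cell of the wound bed had a lower summed level of the genes than that of the other regions. The summed level of the 33 genes had a median of 3778 and 4354 CPM per cell in the wound bed plates, 5441 and 7284 in the control plates, and 5956 and 8522 in the distal plates. Both wound bed medians lay below those of the other 4 plates, while single cells overlapped widely, from 1244 to 11408 CPM in the wound bed and from 8.82 to 31720 elsewhere. Without mitochondrial reads in the total, the medians were 6302 and 6354 in the wound bed against 8397 to 12601 elsewhere. After thinning every cell to 10000 reads, they were 35 and 41 reads against 55.5 to 84. Among cells with more Krt5 and Krt14 than Krt1 and Krt10 reads, a selection of basal-type cells, the wound bed medians were 3854 and 5053 CPM (15 and 30 cells) against 5771 to 8929. Without Tmsb4x and Actb, which hold the most reads of the list in 5 of the 6 plates, the medians were 2452 and 2549 against 3031 to 4509. Without cells rich in predicted genes, which left 5 control cells of batch 1, they were 3732 and 4363 against 5949 to 8377. Summed over a plate's reads in place of the median cell, the level was 4370 and 5696 CPM in the wound bed, 5599 and 7627 in the distal plates and 7310 and 7905 in control, so that wound bed batch 2 lay above distal batch 1. With TMM scaling (explained below) these plate sums were 4232 and 4984 in the wound bed against 6229 to 9288 elsewhere. The mitochondrial percent, which moved with region, had medians of 34.99 and 25.4 in the wound bed, 23.995 and 21.7 in control, and 39.2 and 28.7 in the distal plates. Batch also moved with the sum. The median cell and the plate sum without TMM scaling were higher in batch 2 in each of the 3 regions. With TMM scaling the plate sum was higher in batch 1 in control (9288 and 6372) and in the distal region (7899 and 6229).

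**Figure D2:**
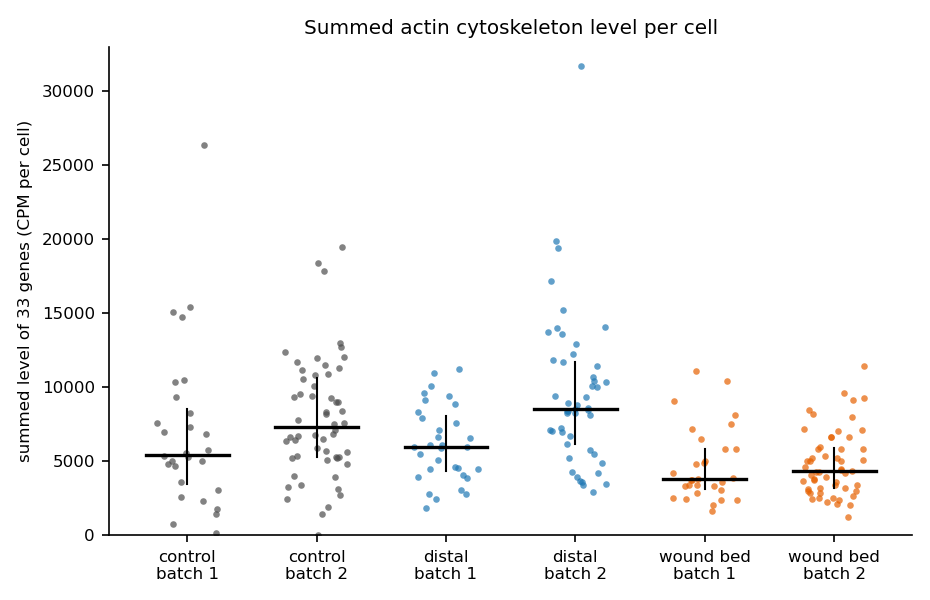
Summed level of the 33 genes in every cell, in CPM per cell on a linear axis, by plate. Points are cells, horizontal lines medians and vertical lines the interquartile range; the wound bed medians of 3778 and 4354 lie below the other 4.

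For the region comparisons, reads were summed over the cells of a plate, scaled between plates by TMM (trimmed mean of M-values) and expressed as scaled CPM. A log2 ratio of scaled CPM plus 1 was taken within each batch. Genes entered a comparison if, in both batches, one of its regions had reads of them in 10% or more of the cells; these are called considered. The size rule asks for log2 ratios of 1 or beyond, or of -1 or below, in both batches. The 3 comparisons share plates, so their ratios are not independent of each other.

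Between wound bed and control, 3 of the 26 genes considered met the size rule as lower in the wound bed (Actg1, Msn and Marcks) and 0 as higher. Among all 5776 genes considered, 8.24% were lower and 7.83% higher by the same rule. Short of the rule, 16 of the 26 (61.5%) had both ratios below 0 and 3 had both above 0, against 27.4% and 27.3% of all genes. The median ratio was -0.81 and -0.23, against 0.03 and -0.03 over all genes. Under the 13 other scalings, filters and cell sets, the share with both ratios below 0 ran from 39.3% (cells with at least 2000 genes) to 63.6%, beside 21.7 to 30.1% of all genes. The batches differed in size: batch 1 alone had 10 of 27 genes lower and 2 higher (29.3% and 30.2% of all genes), and batch 2 alone 3 lower and 1 higher (25% and 21.4%).

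Marcks (chr10:37133375-37138920), a membrane-bound protein that holds actin and phosphoinositides at the cell cortex, had far lower wound bed than control levels in both batches. Marcks was known from earlier results of these data to differ between regions, so its values are a description. Its scaled level was 469.8 and 327 CPM in the control plates, 175 and 119.6 in the distal plates, and 29.9 and 32.6 in the wound bed. The 3 regions did not overlap between plates, with control highest and wound bed lowest in each batch. The log2 ratios were -3.93 and -3.29 for wound bed against control, -1.42 and -1.45 for distal against control, and 2.51 and 1.84 for distal against wound bed. Reads were found in 48 of 84 control cells (57.1%, exact 95% interval 45.9 to 67.9%) and 27 of 81 distal cells (33.3%, interval 23.2 to 44.7%). In the wound bed they were found in 16 of 85 cells (18.8%, interval 11.2 to 28.8%). By plate the shares were 57.1% and 57.1%, 25% and 38.8%, and 20% and 18.2%. These intervals, and those on shares of Afap1, Shtn1 and Vcl below, pool the cells of both plates. They hold counting error only and leave out variation between plates and animals, so they do not compare regions. At equal depth the shares were 34.9%, 22.1% and 10.3%. In distal batch 1 a single cell held 82.2% of the Marcks reads, and without the cell richest in Marcks of each plate the ratios were -4.36 and -4.05, -2.75 and -2.09, and 1.61 and 1.96. Without cells rich in predicted genes the distal ratio against control was 0.37 and -2.01, with 5 control cells left in batch 1. In basal-type cells the ratios were -3.17 and -3.35, -1.06 and -1.03, and 2.11 and 2.32. The wound bed call against control was met in 15 of 15 alternative settings, the distal call against control in 13 and the distal call against the wound bed in 11. The distal call against control was not met in cells with at least 2000 genes or without cells rich in predicted genes. The distal call against the wound bed was not met with every cell weighted equally or without the cells over 500000 reads. Nor was it met without cells rich in predicted genes or after thinning. Dropping the detection filter or leaving out either batch cannot undo a call. Those settings were therefore met in advance, here and in each count of 15 below.

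Actg1 (chr11:120345690-120348542) and Actb encode the actins of non-muscle cells. Scaled Actg1 was 274 and 219 CPM in the control plates, 89.9 and 238 in the distal plates, and 91.2 and 92.1 in the wound bed. Both wound bed plates lay below both control plates, and the distal plates split between these levels. The wound bed ratio against control was -1.57 and -1.24, and -2.23 and -0.99 in basal-type cells, where batch 2 was just under the size rule; it met the rule in the other 14 of 15 alternatives. Actb was also lowest in both wound bed plates, without meeting the rule, at 1209.5 and 1006 CPM in the control plates, 935 and 2265 in the distal plates, and 567 and 589.7 in the wound bed. Its ratio was -1.09 and -0.77 for wound bed against control and 0.72 and 1.94 for distal against wound bed. Reads of Actg1 were in 73 of 84 control, 71 of 81 distal and 66 of 85 wound bed cells, or 63.9%, 68.8% and 47.4% at equal depth. The longest stretch of at least 90% identity found between the transcripts of Actb and Actg1 was 337 bases (91.1%). Reads may therefore be split between them with some error. A transcript of Lrrc58, a gene with 983 reads, matched Actb at 90.6% over 1347 bases. The 10 Actg1 pseudogenes with a row held 114 reads in all, 2.81% of the 4052 of Actg1.

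Msn (chrX:96096042-96168552), moesin, links filaments to the plasma membrane, and its lower call against control rested on 1 cell. Scaled Msn was 909 and 91.4 CPM in the control plates, 186 and 107 in the distal plates, and 73 and 29.6 in the wound bed. In control batch 1 a single cell held 3141 of 3207 reads (97.9%), and reads were found in 7 of its 28 cells. The wound bed ratio of -3.62 and -1.60 became 1.37 and -1.33 without the richest cell of each plate, and 2.37 and -1.43 in basal-type cells. The ratio of distal against wound bed, 1.34 and 1.82, was 1.48 and 1.77 without those cells, but fell short of the rule in 4 of 15 alternatives, basal-type cells (0.87 and 1.64) and thinned cells among them. Ezrin (Ezr), its close relative, did not meet the rule in any comparison, with reads in 51.2% of control, 63% of distal and 58.8% of wound bed cells.

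The 2 light chains with many reads differed from each other. Myl6 was at 329 and 274 CPM in the control plates, 102 and 254 in the distal plates, and 80.2 and 139.8 in the wound bed, so that both wound bed plates were below both control plates (ratios -2.02 and -0.97). It met the size rule with total counts, with totals without mitochondrial transcripts, with thinned cells, in cells with at least 2000 genes and without the richest cells. Myl12a was at 799 and 624 CPM in the control plates, 848 and 369 in the distal plates, and 474 and 778 in the wound bed, and the regions overlapped. Its ratio for wound bed against control was -0.75 and 0.32. Its transcript shares 96.9% identity with Myl12b over 648 bases, and the split of reads between the pair is uncertain. The heavy chain Myh9 was detected in 83 cells, with ratios of -0.52 and 0.37 in that comparison.

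**Figure D3:**
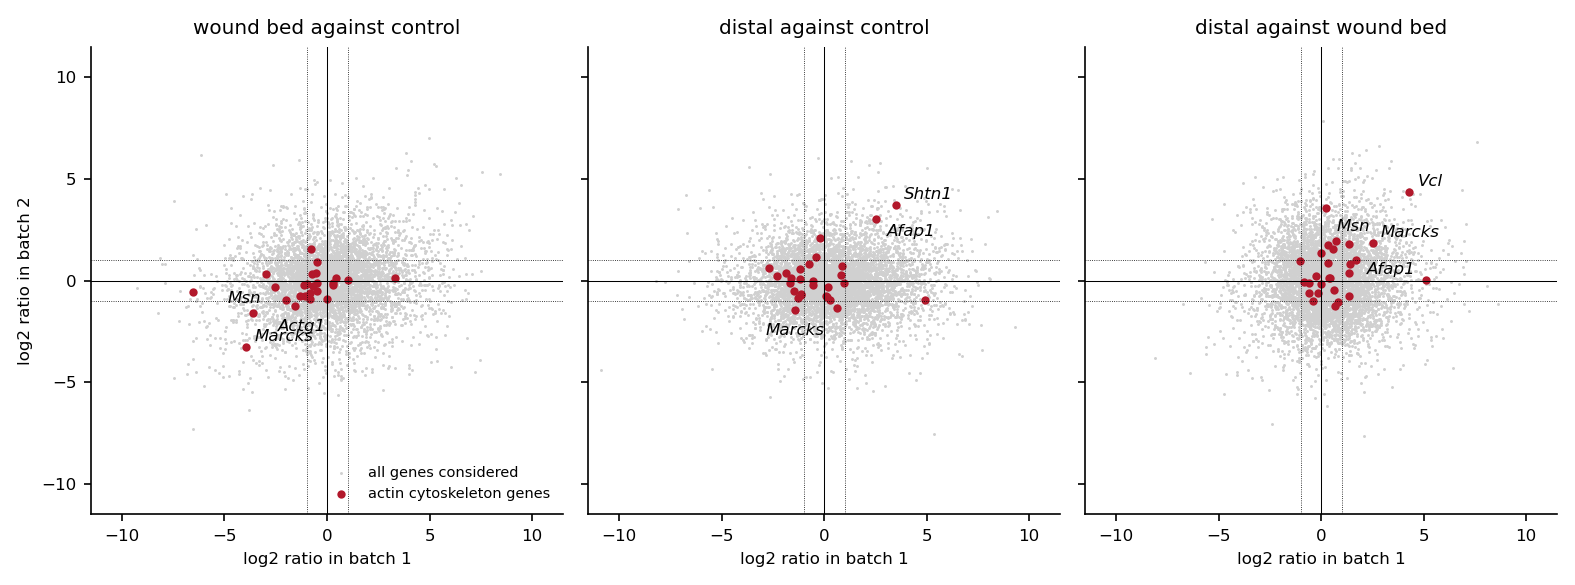
Log2 ratio of scaled CPM plus 1 in batch 1 (x axis) against batch 2 (y axis) for each comparison, with all genes considered in grey, the actin cytoskeleton genes in red and dotted lines at the size rule of 1. Genes that met the rule are named; Marcks lies at -3.93 and -3.29 in the first panel, and Shtn1 (3.50 and 3.70) and Afap1 (2.54 and 3.03) lie in the upper right of the second.

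Between the distal region and control, 2 of 28 genes considered met the size rule as higher in the distal region (Afap1 and Shtn1) and 1 as lower (Marcks). Afap1, Shtn1 and Marcks were all known from earlier results of these data to differ between regions, so these counts are a description. Among all 6356 genes considered, 8.07% were higher and 6.09% lower. The other genes showed no common direction, with 16 of the 28 of opposite sign in the 2 batches and medians of -0.54 and -0.07 (all genes 0.23 and -0.07). Batch 1 alone had 12 of 28 lower and 3 higher (26.4% and 36.4% of all genes), and batch 2 alone 2 of 29 lower and 4 higher (22.4% and 21.6%).

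Afap1 (chr5:35893319-36003923) encodes an adaptor that crosslinks filaments and activates Src, and Shtn1 (chr19:58973356-59076100) encodes shootin, a clutch between filaments and adhesion molecules known from growing axons. Both were known from earlier results of these data to differ, so the values are a description. Afap1 was at 1.13 and 1.20 CPM in the control plates, 11.4 and 17 in the distal plates, and 2.77 and 7.85 in the wound bed. Its reads were in 7 of 84 control cells (8.33%, interval 3.42 to 16.4%), 21 of 81 distal cells (25.9%, interval 16.8 to 36.9%) and 5 of 85 from the wound bed (5.88%, interval 1.94 to 13.2%). Both distal plates were above the other 4. At equal depth the shares were 2.41%, 11.7% and 5.13%, and in distal batch 1 only 1 of 32 thinned cells kept an Afap1 read. In basal-type cells the ratio was 2.63 and 3.18 against control, and 1.08 and 0.87 against the wound bed. With a pseudocount of 10 CPM Afap1 did not meet the rule against control (mean ratio 1.10), and against the wound bed (1.72 and 1.02) it met the rule in 9 of 15 alternatives.

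Shtn1 was at 3.12 and 14 CPM in the control plates, 45.7 and 193 in the distal plates, and 39.3 and 15.1 in the wound bed. Both distal plates were highest, but wound bed batch 1 was close to distal batch 1. A single cell held 75.7% of the Shtn1 reads of distal batch 1 and 81.3% of those of distal batch 2. Without the richest cell of each plate the ratio for distal against control was 2.54 and 1.94 in place of 3.50 and 3.70. Without the 4 cells of over 500000 reads it was 0.91 and 3.70, which does not meet the rule. Its reads were in 16.7% of control cells (9.42 to 26.4%), 30.9% of distal cells (21.1 to 42.1%) and 17.6% of those from the wound bed (10.2 to 27.4%), or 6.02%, 14.3% and 12.8% at equal depth. In basal-type cells the ratio was 1.84 and 3.91. Thinned to 10000 reads, neither Afap1 nor Shtn1 had reads in enough cells to be considered in distal against control.

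Afap1 and Shtn1 reads fell in the same cells in the distal region more than elsewhere by count. Both were present in 12 distal cells, which is 48% of the 25 cells with Shtn1 and 57.1% of the 21 with Afap1, in 0 of 84 control cells and in 1 wound bed cell. By plate the distal cells with both were 4 of 32 and 8 of 49. In distal batch 1 each of the 4 cells with both was deeper than the plate's median cell. Cells of over 500000 reads were among them. Distal batch 2 had the lowest median depth of the 6 plates, which does not give the depth of its 8 cells with both. No count expected from the share of each gene was computed, and the part of depth was not tested. After thinning, Shtn1 kept reads in 1 to 10 cells and Afap1 in 1 to 8 cells of a plate, and both were in 0 of 32 and 2 of 45 distal cells and in 1 wound bed cell. With so few cells left, the regions were not compared at equal depth.

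**Figure D4:**
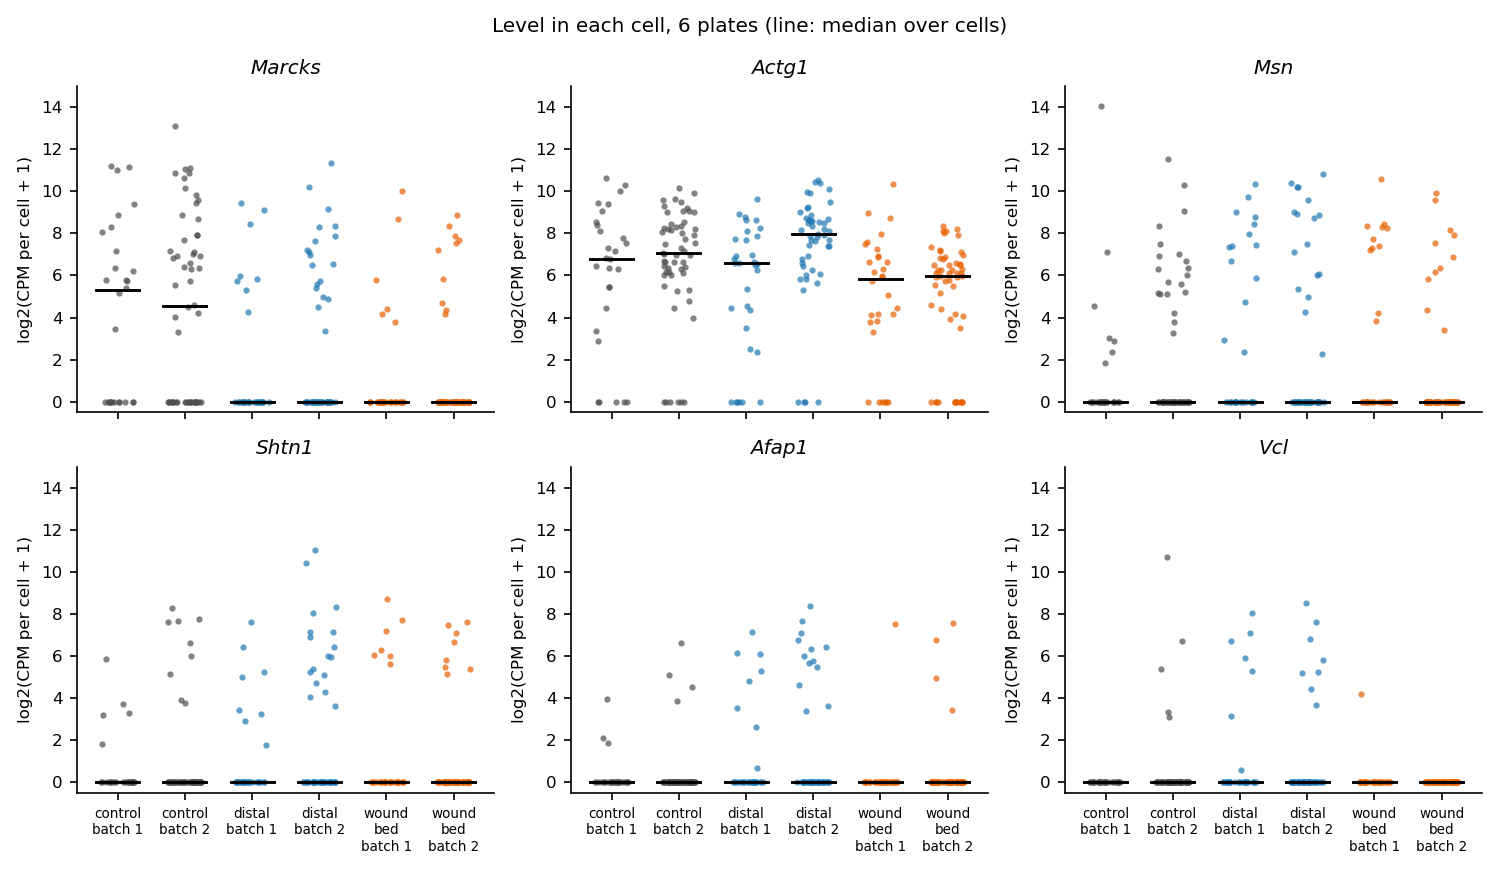
Level of the 6 genes that met the size rule, in every cell, as log2 of CPM per cell plus 1, by plate. Points are cells and lines medians; Marcks is the only one of the 5 sparser genes with a median above 0 in control (38.5 and 22.2 CPM), and the single Msn-rich control cell of batch 1 (16905 CPM) stands at the top of its panel.

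Between the distal region and the wound bed, 4 of 27 genes considered met the size rule as higher in the distal region (Vcl, Msn, Afap1 and Marcks) and 0 as higher in the wound bed. Vcl and Afap1 passed the filter only through the distal cells, where they are high, so the filter favoured the direction of their calls, as it did for Afap1 in batch 2 of distal against control. Among all 6285 genes considered, 9.59% were higher and 5.28% lower in the distal region. Both ratios were above 0 in 14 genes (51.9%; all genes 27.4%) and below 0 in 6 (22.2%; all genes 21.4%), with medians of 0.41 and 0.22 (all genes 0.25 and -0.02). With total counts the median of batch 1 was -0.12 (all genes -0.25), and 33.3% of the genes had both ratios above 0 (all genes 22.9%). Batch 1 alone had 8 of 28 higher and 1 lower (33.7% and 21.6% of all genes), and batch 2 alone 9 higher and 3 lower (28.7% and 26.1%). Thinned to 10000 reads, 4 of 24 met the rule as higher, and they were other genes: Actb, Myl6, Tagln2 and Tmsb10 (all genes 6.21%).

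Vcl (chr14:20929398-21033676), vinculin, is the adhesion protein that couples integrin contacts to filaments. It was at 29.5 and 19.2 CPM in the distal plates, 0.553 and 0 in the wound bed, and 0 and 38.8 in control. Reads were in 15 of 81 distal cells (18.5%, 10.8 to 28.7%), 1 of 85 wound bed cells (1.18%, 0.0298 to 6.38%) and 5 of 84 control cells (5.95%, 1.96 to 13.3%). Distal and wound bed plates did not overlap, and control spanned both. In batch 1, 223 distal reads against 1 wound bed read made Vcl 53.3-fold higher (counting interval 9.47 to 2115), and in batch 2 it was at least 21.2-fold higher by a floor of 3 counts for the plate. A single cell held 78.5% of the reads of distal batch 1, 64.7% of those of distal batch 2 and 96.4% of the 194 of control batch 2. Without the richest cell of each plate, the distal ratio against the wound bed was 3.10 and 3.01, and in basal-type cells it was 5.67 and 3.50. The call was met in 12 of 15 alternatives, and in the other 3 Vcl had reads in too few cells to be considered. At equal depth 11.7% of distal and 2.41% of control cells kept a read, and 0 of 78 wound bed cells did, which allows a share of up to 3.85% (3 counts of the total). The intervals and limits hold counting error only. For the folds, PCR copies of 1 molecule can also be read many times over.

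The rest of the adhesion group was near the limit of detection. Zyx, zyxin of mature adhesions, had reads in 26 cells and was not considered in any comparison. Itga5, the fibronectin receptor chain, had 2 reads in 1 distal cell. Itgb6, a chain of the epithelial integrin known from migrating wound keratinocytes, had 43 reads in 6 cells, of which 2 were among the 85 wound bed cells.

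No gene of monomer binding and filament turnover met the size rule. Tmsb4x was at 2289 and 1766 CPM in the control plates, 2763 and 915 in the distal plates, and 1062 and 1539 in the wound bed, with reads in every distal and wound bed cell and in 79 of 84 control cells. Pfn1 was at 142 and 176 CPM in the control plates, 64.5 and 112 in the distal plates, and 99.0 and 122 in the wound bed. Cfl1, cofilin, was above 0 in both batches in each comparison, with ratios of 0.41 and 0.14 for wound bed against control and 0.81 and 0.28 for distal against control. Both Pfn1 control plates lay above the other 4 plates. Both Tmsb4x wound bed plates lay below both control plates, with a distal plate on either side of them. Nor was the rule met by the Arp2/3 subunits Arpc2, Arpc3 and Arpc5 or by the capping protein Capzb. Arpc5 was at 133 and 139 CPM in the control plates, 263 and 128 in the distal plates, and 268 and 143 in the wound bed, so that both wound bed plates lay above both control plates and the distal plates overlapped the others.

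Of the 9 crosslinkers and filament-binding proteins considered in wound bed against control, 6 had both ratios below 0 and none met the size rule. Tagln2, the transgelin of non-muscle cells, was highest in the distal region, at 375 and 381 CPM against 201 and 233 in control and 142 and 217 in the wound bed; its ratios of 0.90 and 0.71 against control and 1.39 and 0.81 against the wound bed fell short of the rule. Iqgap1, a scaffold between Rac, Cdc42 and actin, was at 794 CPM in control batch 1, where 1 cell held 74.9% of its reads, and at 109.9 to 355 in the other plates. The calponin Cnn2 had 0 reads in the 30 wound bed cells of batch 1, which allows a share of up to 10% (3 counts of the total). In control batch 1 it had 329 reads in 4 of 28 cells (14.3%, interval 4.03 to 32.7%), and a single cell held 74.5% of them. By reads Cnn2 was at least 56.2-fold lower in the wound bed of batch 1. That bound holds counting error only and rests on these few cells. In batch 2 the Cnn2 ratio was -0.57. Of the 6 genes with a CArG box, Actg1, Myl6 and Cnn2 were considered in wound bed against control. Both ratios of each were below 0, as for 61.5% of the listed genes and 27.4% of all genes considered. The others had reads in too few cells, with ratios of 0.64 and -5.31 for Vcl, 0.76 and 1.29 for Itgb6, and -7.07 and -0.26 for Myl9.

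The smooth muscle-type light chain Myl9 showed how far 1 cell can carry a plate. Of its 480 reads, 471 came from 1 control cell of batch 1, at 1165 CPM. That cell had 387 Krt14 and 208 Krt5 reads and 0 reads of Acta2, Vim and the fibroblast markers.

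Levels of the 33 genes were only weakly related from cell to cell. Spearman correlations were computed over the cells of a plate after thinning to 10000 reads, for genes with reads in at least 25% of those cells; cells of a plate share preparation, and no p is given. The median over pairs of the listed genes was 0.121 and 0.106 in the control plates, 0.108 and 0.0940 in the distal plates, and 0.0461 and 0.0453 in the wound bed, over 78 to 136 pairs and 28 to 55 cells. Over pairs of all genes under the same filter it was 0.0124 to 0.0340. With all reads in place of thinned cells, the wound bed medians were 0.0712 and 0.112 and the distal ones 0.103 and 0.0594, so the lower wound bed value does not hold there.

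Across the 6 plates, 12 of the genes passed the filter in every plate and gave 66 pairs. The mean correlation had a median of 0.0888 over these pairs and 0.0291 over the pairs of all 577 genes that passed. Only 5 of the 66 pairs were above 0.256, the 95th percentile of all pairs, and 4 of the 5 held Actg1. Actb and Actg1 had the highest mean (0.301, from 0.142 to 0.394 by plate). Actg1 with Pfn1 followed (0.290, from 0.0514 to 0.613), then Actg1 with Myl6 (0.274) and Actg1 with Tagln2 (0.271), and Actb with Tagln2 (0.268). Positive values in all 6 plates were found for 10 of the 66 pairs (15.2%; all pairs 9.94%). Tmsb4x, with the most reads, had means of -0.0375 to -0.0221 with Arpc2, Arpc5 and Ezr, and its highest mean was 0.182 with Myl12a.

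**Figure D5:**
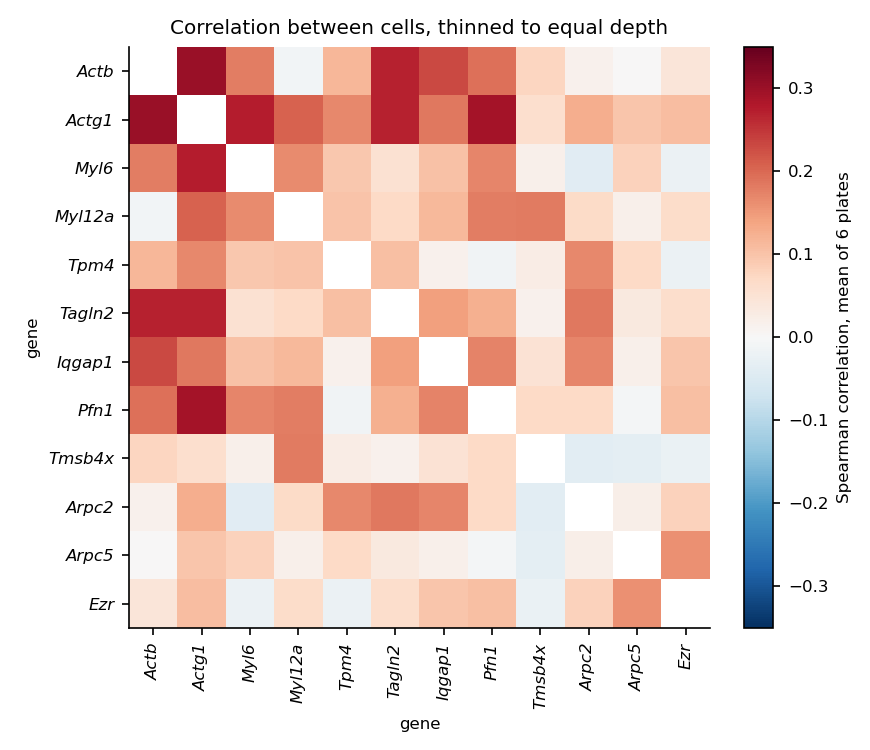
Spearman correlation between cells for the 12 genes detected in at least 25% of the thinned cells of every plate, as the mean of 6 plates (colour). The reddest cells join Actg1 with Actb, Pfn1, Myl6 and Tagln2 (0.271 to 0.301). The highest means in the Tmsb4x, Arpc5 and Ezr rows are 0.182 (Tmsb4x with Myl12a) and 0.160 (Arpc5 with Ezr).

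The summed level of the genes was compared with cell identity markers across the thinned cells of each plate. Its correlation with the summed upper hair follicle markers was positive in all 6 plates (mean 0.317, from 0.231 to 0.414). With basal markers it was positive in 5 of 6 plates (mean 0.225, from -0.176 to 0.534). With suprabasal markers it was positive in 3 of 6 (mean -0.0745, from -0.449 to 0.145). Of the 12 genes, Ezr had the highest mean correlation with suprabasal markers, 0.251 (0.191 to 0.35, positive in 6 plates). The sum was also related to the number of genes with a read in the thinned cell (mean 0.277, from 0.00137 to 0.481). With the mitochondrial percent it was negative in all 6 plates (mean -0.188, from -0.584 to -0.0102).

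Of 97 further genes of the same machinery with a row, 66 were considered in wound bed against control, and 3 met the size rule as higher and 7 as lower (4.55% and 10.6%, against 7.83% and 8.24% of all genes). Abi1, of the WAVE complex that activates Arp2/3, was higher (1.34 and 1.78). Lower were Arpc1b, a subunit of Arp2/3 itself (-2.18 and -1.63), the long-tailed class I myosin Myo1e (-1.48 and -1.60) and the integrin chain Itgav (-3.23 and -1.08). In distal against control, 5 of 69 were higher and 7 lower (7.25% and 10.1%, against 8.07% and 6.09%). Higher were the tropomyosin Tpm3 (2.13 and 1.24), the cytolinker Plec (2.40 and 1.23) and the pointed-end capping protein Tmod3 (1.14 and 1.18). Among those lower were Enah, which elongates filaments (-1.45 and -2.32), Wasf2 of the WAVE complex (-1.13 and -1.34) and the bundling protein Pls3 (-1.12 and -1.04). In distal against wound bed, 3 of 68 were higher and 2 lower (4.41% and 2.94%, against 9.59% and 5.28%). The genes named are examples, and nothing is read from these shares about the list. Gsn, a severing protein (1.52 and 1.02), Myo1e (1.05 and 2.41) and Arpc1b (2.79 and 1.21) were higher, and Nckap1 of the WAVE complex (-1.73 and -1.82) and Pdlim5 (-1.76 and -1.29) lower. Arpc1b is named here after its values were seen, since fewer than 25% of the distal cells of batch 2 had a read. The medians over those of the 97 genes that were considered had opposite signs in the 2 batches for wound bed against control (-0.22 and 0.19) and for distal against wound bed (0.23 and -0.42). The gene for serum response factor, Srf, had 15 reads in all, in control cells, and was not considered.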

How the data were processed

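Per the labels, single cells were prepared by Smart-Seq2, a full-length method without molecular identifiers. The authors deposited whole-number read counts for 27003 gene symbols in 250 cells. Salmon 0.13.1, Seurat and R 4.0.3 appear in the submitters' processing notes with the build mm10 (GRCm38), without role or order; how estimates were rounded is not given in the sources used here. All 250 columns matched a label, and 0 pairs of columns were identical.

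Counts were summed per plate and scaled by TMM (edgeR 4.0.16, R 4.3.3). Log2 ratios with a pseudocount of 1 CPM were taken within each batch, and the size rule was used in place of a test, because no animal is named. No cell was left out; no doublets were called and no free RNA was subtracted. Thinning to 10000 reads dropped 1 cell of control, 4 of the distal region and 7 of the wound bed. Shares have exact Clopper-Pearson 95% intervals, which for a region pool the cells of both plates. The scripts were tested on simulated data. Near-identical transcripts were sought with blastn in GENCODE M21 (at least 90% identity over 200 bases). Levels per kilobase used the length of the union of annotated exons.

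The listed genes, the further pathway genes and the marker lists were chosen with earlier results of these data known. Genes meeting the size rule and the 6 detected in most cells were given plate by plate, other genes by counts and ranges with examples. Further pathway genes were named only if they met the size rule and the higher region had reads of them in 25% or more of its cells, batch by batch. Of these, 1 is not reported here. Alternatives changed the scaling (total counts, DESeq2 1.42.0 size factors, totals without mitochondrial transcripts), the detection filter, the pseudocount, the weight of cells, the cells kept, the depth and the batch. A gene that met the size rule also meets it, by construction, without the detection filter and with either batch left out.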

Additional observations from a re-analysis of the deposited data

How the results depend on the processing

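No paired analysis was possible because no animal is named and the cells carry no numbers that pair them, so no test was run; the ratios were already taken within batch. Of 455 ratios of single named genes recomputed under the alternatives, 405 kept their side of the size rule, 26 newly met it, 20 no longer met it and 4, all of Msn, turned direction and met the rule in 1 of the settings compared. Of the 405, 24 changed sign without meeting the rule in either setting. The Msn mean ratio for wound bed against control was 1.77 without cells rich in predicted genes, 0.47 in basal-type cells and 0.0238 without its richest cell in each plate, an alternative chosen after seeing the data; for distal against control it was 2.33 in cells with at least 2000 genes. For wound bed against control, basal-type cells gave 1 gene higher and 1 lower (10.4% and 11.2% of all genes). For distal against control, 1 gene was higher with a pseudocount of 10 CPM (3.54% of all genes) and 1 without the cells over 500000 reads (7.34%), 4 were higher in cells with at least 2000 genes (12.1%) and 0 after thinning (6.96%); 0 were lower without cells rich in predicted genes (5.25%) and 2 in basal-type cells (6.54%). For distal against wound bed, 2 were higher with every cell weighted equally (8.53%) and 1 without cells rich in predicted genes (8.06%), where 1 was lower (5.79%), as was 1 in cells with at least 2000 genes (6.81%). Leaving out a batch gave 1 to 2 genes higher and 3 to 10 lower for wound bed against control, 3 to 4 higher and 2 to 12 lower for distal against control, and 8 to 9 higher and 1 to 3 lower for distal against wound bed, because the rule then asks for 1 ratio in place of 2 (21.4 to 36.4% of all genes). Thinning took the median share of cells with a read over the 33 genes from 35.7% to 18.96% in control, from 41.3% to 24.3% among distal cells and from 29.5% to 15.1% among wound bed cells, since fewer reads are kept. The plate sum in place of the median over cells raised the wound bed level to 5033 CPM, and wound bed batch 2 then lay above distal batch 1. Median co-expression in control was 0.0955 with Pearson correlation; for distal cells it was 0.0812 with all reads and 0.128 without the cells over 500000 reads; for wound bed cells it was 0.0917 with all reads and 0.0426 with Pearson correlation. Where no cause is given above, the cause was not tested. Sparse genes also limit the comparisons: of the 6 genes that met the size rule, all but Actg1 had reads in 91 or fewer of the 250 cells.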
